A study of Mus musculus with 6 samples.

Results

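CD8 T cells are the lymphocytes that kill infected or transformed cells after their receptor binds peptide on MHC class I, and they were followed here through 4 stages of a mouse mammary tumour. The cells were chosen by their measured UMIs (unique molecular identifiers, each counting 1 captured RNA molecule). A cell was taken as a CD8 T cell when it had 500 or more UMIs, 200 or more genes and no more than 20% of its UMIs from mitochondrial genes. It also needed at least 1 UMI of the receptor chains Cd3e, Cd3d and Cd3g together and at least 1 of the co-receptor chains Cd8a and Cd8b1, with no UMI of Cd4, Foxp3, Gzmc, Gzmf, Csf1r or Epcam. The rule kept 759 of the 18293 cells that passed the quality limits. Since it chose cells by measured genes, those genes are not results, and a count of these cells is a count by this rule.

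The 4 libraries were Primary, Dormant, Long-term dormant and Recurrent, with 1 library per stage and no replicate. All came from mammary tumours transplanted into FVB mice (strain label FVB.rGH-Luc-GFP). The genotype labels were MMTV-Wnt1/iFGRR2 for Primary, MMTV-Wnt1/iFGRR1 for Dormant, MMTV-Wnt1/iFGRR4 for Long-term dormant and MMTV-Wnt1/iFGRR3 for Recurrent, and the sources do not say why the last digit differs. In this model the MMTV promoter drives the growth factor Wnt1 in mammary epithelium, and B/B homodimerizer was injected until the tumours no longer needed it. Established tumours then had a course of NVP-BGJ398, an inhibitor of FGF receptors, over 14 days, followed by 14 days without drug. Dormant is residual tissue after this course, Long-term dormant is such tissue at a later age, and Recurrent is regrown tumour. Primary is untreated tumour by its name, although the protocol text is shared by all samples. The mice were aged 8 to 10 weeks in Primary, 10 to 12 in Dormant, 32 to 34 for Long-term dormant and 20 to 22 in Recurrent, so stage and age cannot be told apart. Cells were frozen, thawed and sorted as live by DAPI, with 10000 targeted per library on version 2 of the Chromium 3' kit. The labels do not say how many animals gave each library.

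A naive CD8 T cell carries Ccr7, which takes it into lymph nodes, under the transcription factors Klf2, Lef1 and Tcf7. On activation it makes granule proteins (granzymes and perforin) and cytokines, and some cells stay in tissue as resident memory cells with the integrin Itgae. Long exposure to antigen, as in tumours, leads to exhaustion, in which inhibitory receptors such as Pdcd1, Lag3, Havcr2 and Tigit stay on. The data below follow these programmes from library to library.

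Over all cells of the rule, the granzyme Gzma was higher in the 2 residual-tissue libraries and the granzyme Gzmb in the 2 tumour libraries. Their promoters are shown for that reason. Both contrasts depended on which cells were kept, as given below. The log2 ratio of Gzmb for Dormant over Primary turned from -1.79 to 0.58 without gamma-delta and NK marker cells. Each line holds 250 bases before and 50 bases after the gene's start in RefSeq's GRCm38.p6 annotation, 5′ to 3′ on the gene's own strand. Gzma lies on the minus strand at chr13:113100932-113101231 and Gzmb on the minus strand at chr14:56262285-56262584. Capitals mark matches to TGANTCA, the letters bound by AP-1, and to TGTGGT, those bound by Runx factors, searched on both strands.
Gzma: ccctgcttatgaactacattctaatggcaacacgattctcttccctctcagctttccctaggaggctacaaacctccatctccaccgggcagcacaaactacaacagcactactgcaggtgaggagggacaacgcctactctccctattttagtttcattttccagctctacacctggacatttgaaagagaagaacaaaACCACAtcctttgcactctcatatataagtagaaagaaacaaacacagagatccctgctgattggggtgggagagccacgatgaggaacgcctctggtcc
Gzmb: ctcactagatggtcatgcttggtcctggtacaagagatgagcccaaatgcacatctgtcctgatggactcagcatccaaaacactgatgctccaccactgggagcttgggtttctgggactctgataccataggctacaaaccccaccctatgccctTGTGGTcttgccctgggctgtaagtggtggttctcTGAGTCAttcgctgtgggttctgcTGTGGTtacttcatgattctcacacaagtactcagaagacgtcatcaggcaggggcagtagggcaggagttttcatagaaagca
The Gzma window held 1 Runx match, on the opposite strand and starting 50 bases before the gene's start, and no AP-1 match. The Gzmb window held 1 AP-1 match, 58 bases before the start, and 2 Runx matches, 93 and 34 bases before it. The AP-1 match was found on both strands because the pattern TGANTCA is its own reverse complement. Of 32817 promoter windows of the same length, 7.81% held the AP-1 letters and 16.8% the Runx letters. A match describes letters and was not tested as a binding site.

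The rule found 107 cells in Primary, 490 in Dormant, 65 in the Long-term dormant library and 97 in Recurrent. They made up 2.47% of the filtered cells in Primary (2.03 to 2.98), 15.0% in Dormant (13.8 to 16.2), 1.08% for Long-term dormant (0.837 to 1.38) and 2.07% in Recurrent (1.68 to 2.52). These are exact 95% Clopper-Pearson intervals, and like all intervals here they cover counting error only, not the spread between animals. Among cells with a Cd3 UMI and no Csf1r or Epcam UMI, the CD8 share was 17.7%, 29.1%, 15.5% and 25.1% in the same stage order, so the libraries were closer on that scale. Dormant had the highest share on both, but with 2 or more Cd8 UMIs required the order on the Cd3 scale turned, with 18.9% in Recurrent against 16.8% in Dormant. The mix of other cells and the sort set the first denominator. The CD8 cells held 341973 UMIs in Primary, 1770201 in Dormant, 165920 in the Long-term dormant library and 361696 in Recurrent, with medians of 2810, 2737.5, 1614 and 3233 UMIs per cell. A gene with no UMI may therefore lie below 8.77, 1.69, 18.1 and 8.29 CPM (counts per 1000000 CD8 T cell UMIs) in that order, taking 3 UMIs as the limit of a count of 0. The rule set no upper limit, and the richest CD8 T cell held 9882, 63410, 14424 and 8964 UMIs in stage order. Whether the richest Dormant cell was a single cell was not tested, and such a cell weighs more in summed levels. Between 26 and 50 cell barcodes were shared by any 2 libraries as deposited, and at most 1 within the CD8 T cells.

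Near the limits of the rule, 294 of the 759 cells had exactly 1 Cd8 UMI and 465 had more. Another 73 cells were left out solely for a Gzmc or Gzmf UMI, 22 in Primary, 4 in Dormant, 0 for Long-term dormant and 47 in Recurrent, and 35 solely for exactly 1 Cd4 UMI. The rule thus set aside more such cells in the 2 tumour libraries than in the 2 residual-tissue libraries.

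The label was checked with genes that the rule did not use, and Long-term dormant matched it least. A UMI of the alpha-beta receptor genes Trac, Trbc1 or Trbc2 was found in 96.3% of the cells in Primary, 94.9% in Dormant, 80.0% in the Long-term dormant library and 94.8% in Recurrent. The 13 further T cell genes examined, all detected in each library, summed to 4111, 3702, 2640 and 4142 CPM in that order. The fibroblast genes Col1a1, Col1a2, Col3a1 and Dcn summed to 5.85 CPM in Primary, 293 in Dormant, 7895 for Long-term dormant and 13.8 in Recurrent. In Long-term dormant 18 of 65 cells (27.7%) had 3 or more of these UMIs. The 10 myeloid markers summed to 1562, 3022, 7648 and 1277 CPM, with 9, 10, 8 and 10 of them detected, while the 4 erythroid markers were at 0 throughout. A UMI of the macrophage complement genes C1qa, C1qb or C1qc was found in 34.6%, 5.92%, 3.08% and 34.0% of the cells in stage order, more often in both tumour libraries. A gamma-delta constant gene had a UMI in 29.0%, 28.0%, 33.8% and 38.1%, but without an alpha-beta constant gene in only 1, 4, 4 and 2 cells. Epithelial markers summed to 167 CPM in Primary, 45.8 in Dormant, 60.3 in the Long-term dormant library and 310 in Recurrent. The 8 NK markers summed to 743, 803, 892 and 1252 CPM in stage order and the 8 gamma-delta markers to 292, 180, 205 and 318. Single NK markers did not share the order of their sum. A UMI of Ncr1 or Klrb1c was found in 0.935%, 6.12%, 4.62% and 0% of cells. Fcer1g or Tyrobp had one in 38.3%, 28.6%, 36.9% and 52.6%. No order of NK content is read from the sum. The part of these other lineages in the results was not tested, except where values without such cells are given.

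**Figure D1:**
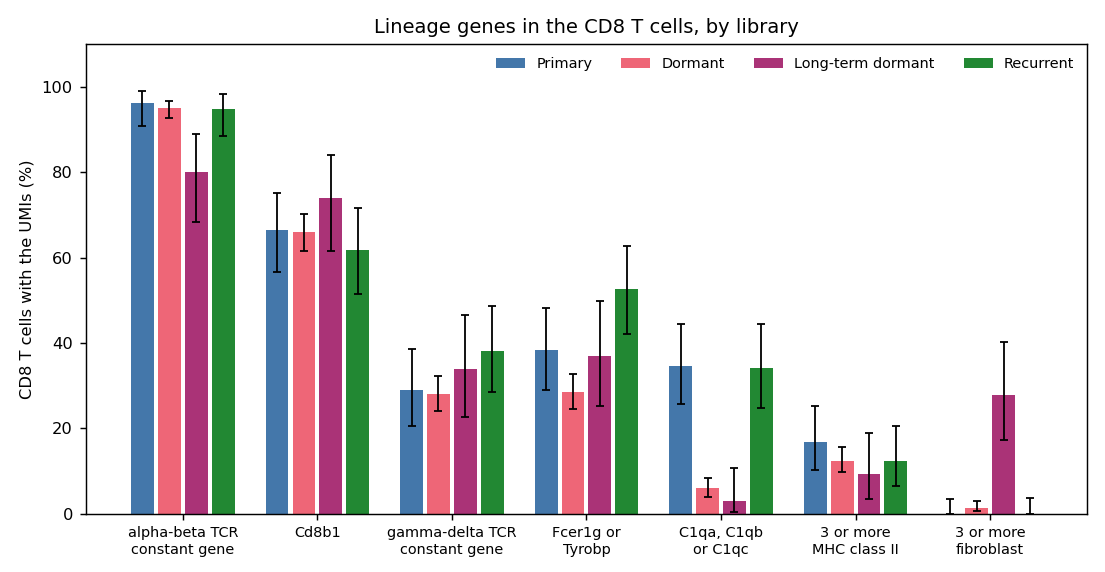
Share of CD8 T cells (percent, linear axis) with the UMIs named under each set of bars, for Primary, Dormant, Long-term dormant and Recurrent from left to right; error bars are exact 95% Clopper-Pearson intervals. The alpha-beta receptor share is lowest in Long-term dormant at 80.0%, where 27.7% of cells have 3 or more fibroblast UMIs, and C1q UMIs are found in 34.6% of cells in Primary and 34.0% in Recurrent.

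Summed over all cells, naive and circulating genes were highest in Dormant, and Recurrent stood below Primary. The log2 ratio of Dormant over Primary, 0.52, fell to 0.22 with 2 or more Cd8 UMIs required and to 0.27 with a Cd8b1 UMI required. The place of Long-term dormant was not stable. Its log2 ratio over Dormant moved from -0.71 to -1.39 without cells bearing other-lineage UMIs, beside -1.34 for Recurrent over Dormant with all cells. With 2 or more Cd8 UMIs required it moved the other way, to -0.22. No order is therefore read between Long-term dormant and Recurrent for the sum. The 13 genes of the list summed to 719 CPM in Primary (632 to 815), 1033 in Dormant (986 to 1082), 627 for Long-term dormant (512 to 759.5) and 406 in Recurrent (343 to 478). The Primary and Long-term dormant intervals overlapped, and the Dormant and Recurrent ones overlapped no other. Ccr7, the chemokine receptor for lymph node entry, was at 99.4 CPM in Primary, 197 in Dormant, 12.1 (2 UMIs) in the Long-term dormant library and 60.8 in Recurrent. Dormant stood highest (176 to 218), with an interval apart from those of Primary (68.9 to 139), Long-term dormant and Recurrent. Klf2, which keeps the exit receptor S1pr1 on, was at 222 CPM in Primary (175 to 278), 262 in Dormant (239 to 287), 121 for Long-term dormant (73.6 to 186) and 47.0 in Recurrent (27.4 to 75.3). Il7r, the survival receptor of naive and memory cells, was at 58.5, 88.7, 60.3 and 8.29 CPM in that order. For both genes Recurrent was lowest, although its Klf2 interval touched that of Long-term dormant. Tcf7, the factor of naive and stem-like cells, differed little between libraries, at 23.4, 35.0, 30.1 and 22.1 CPM. Exceptions to Dormant standing highest included Dapl1 and Igfbp4. Dapl1 was at 55.6 CPM in Primary, 15.8 in Dormant, 0 in the Long-term dormant library and 44.2 in Recurrent. Igfbp4 reached 121 CPM in Long-term dormant, where 1 cell held 55.0% of its UMIs.

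As log2 ratios, the naive list's sum was 0.52 (0.33 to 0.72) for Dormant over Primary, -0.71 (-1.02 to -0.44) for Long-term dormant over Dormant, -1.34 (-1.60 to -1.10) for Recurrent over Dormant and -0.82 (-1.13 to -0.52) for Recurrent over Primary. These comparisons share the Dormant library 3 times and the Primary library in 2 of them, so they are not independent. Per gene, only those with at least 20 UMIs over both libraries were counted, and a gene was counted as higher or lower past 2-fold. For Dormant over Primary 2 naive genes of 12 were 2-fold higher and 1 was 2-fold lower, where 16.7% and 5.96% of all 6381 genes were. For Long-term dormant over Dormant 1 was higher and 5 were lower (4 with Dapl1 taken at its limit), where 15.4% and 10.1% of 6291 genes were. In Recurrent over Dormant 1 was higher and 7 were lower, beside 7.7% and 13.4% of 6445 genes. In Recurrent over Primary 0 of 8 were higher and 3 were lower, beside 4.97% and 2.53% of 3157 genes. The share of naive genes that were lower in Recurrent was thus above that of all genes in both comparisons. The median log2 ratio over the list was 0.61, -0.55, -1.10 and -0.71 in the 4 comparisons, beside 0.11, 0.14, -0.03 and 0.10 over all genes.

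Granule and killing genes differed gene by gene rather than together. Gzma, a granzyme that cleaves substrates without activating caspases directly, was at 5.85 CPM in Primary (2 UMIs), 136 in Dormant (241 UMIs), 115 for Long-term dormant (19 UMIs) and 0 in Recurrent. It was present in the 2 residual-tissue libraries and at or near 0 in the 2 tumour libraries, at least 16.4-fold lower in Recurrent than in Dormant. Gzma of Long-term dormant over Dormant, -0.22 on the log2 scale, was -3.54 without cells bearing other-lineage UMIs. Gzmb, the caspase-activating granzyme of acute effectors, was at 570.2 CPM in Primary (493 to 656), 166 in Dormant (147 to 186), 60.3 in the Long-term dormant library (28.9 to 111) and 857 in Recurrent (764 to 958). It was higher in the 2 tumour libraries than in the 2 residual-tissue ones, with no 2 intervals overlapping. The log2 ratio of Gzmb was -1.79 (-2.05 to -1.52) for Dormant over Primary and 2.37 (2.14 to 2.61) for Recurrent over Dormant. A single Dormant cell held 39.2% of that library's Gzmb UMIs. Without cells that had a gamma-delta or NK marker UMI, the Dormant over Primary ratio of Gzmb turned to 0.58 and Recurrent over Primary, 0.59 with all cells, was 3.55. Gzmb lies among near-identical granzyme genes, so reads may have been shared between them.

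Perforin (Prf1), which opens the target membrane, was at 17.5 CPM in Primary, 53.1 in Dormant, 36.2 for Long-term dormant and 5.53 in Recurrent. Its level in Dormant was above that in Recurrent beyond counting error, with a log2 ratio of Recurrent over Dormant of -2.95 (-6.33 to -1.37). Nkg7, a granule membrane protein, was abundant throughout, at 1702, 1482, 874 and 1761 CPM, and Ctsw, a cathepsin of killer cells, at 336, 289, 217 and 445 CPM. Cst7, which restrains cathepsins, was at 199, 137, 72.3 and 252 CPM. All 3 were lowest in Long-term dormant, where T cell genes as a group were lowest too. Gzmm and the granzyme B inhibitor Serpinb9 had no UMI in Primary and were at least 2.9-fold and 2.45-fold higher in Dormant. Gzmk had at most 13 UMIs in any library, and Fasl between 18.1 and 40.9 CPM. The list's sum was 3492 CPM in Primary, 3097 in Dormant, 2049 in the Long-term dormant library and 4056 in Recurrent. For Dormant over Primary 4 of 11 genes were 2-fold higher and 1 was 2-fold lower, for Long-term dormant over Dormant 0 and 1, for Recurrent over Dormant 1 and 2, and for Recurrent over Primary 0 and 0 of 7. Over all genes the shares higher and lower were 16.7% and 5.96%, 15.4% and 10.1%, 7.7% and 13.4%, and 4.97% and 2.53% in these comparisons, so apart from the higher genes of Dormant over Primary the counts lay near or below the background. The summed ratio of Dormant over Primary, -0.17, turned to 0.13 with 2 or more Cd8 UMIs required, to 0.15 with a Cd8b1 UMI required and to 0.10 without cells bearing other-lineage UMIs, so its direction was not stable.

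Among secreted effector products, Ccl5, a chemokine that draws T cells and myeloid cells, made the widest difference. It was at 2570 CPM in Primary (2403 to 2746), 13454 in Dormant (13284 to 13626), 6135 for Long-term dormant (5764 to 6524) and 691 in Recurrent (608 to 782). No 2 intervals overlapped, and the log2 ratio was -4.28 for Recurrent over Dormant and -1.89 for Recurrent over Primary. The ratio of Dormant over Primary, 2.39, lay between 2.14 and 2.89 under all alternatives tried. Many cells held Ccl5. After every cell was thinned to 1000 UMIs, 36.3% of the cells in Primary, 69.9% in Dormant, 80.7% in the Long-term dormant library and 26.3% in Recurrent had a Ccl5 UMI, and 13.7%, 39.5%, 28.1% and 3.16% had 10 or more. Epcam-positive cells thinned likewise, which should not make it, had a Ccl5 UMI in 1.91%, 18.6%, 9.49% and 1.04%. The share with any UMI in Long-term dormant against Dormant ran opposite to the CPM, and no order is read between them.

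Ifng, the main activating cytokine of killer cells, was at 2.92 CPM in Primary (1 UMI), 71.2 in Dormant, 54.2 for Long-term dormant and 19.4 in Recurrent. In Dormant 1 cell held 39.7% of it. Xcl1, which attracts cross-presenting dendritic cells, went another way, at 541 CPM in Primary, 334 in Dormant, 325 in the Long-term dormant library and 771 in Recurrent. Ccl4, a chemokine released on receptor signalling, was at 205, 145, 108 and 49.8 CPM, with 50% of the Primary UMIs in 1 cell. Ccl3 was at 46.8, 36.2, 0 and 11.1 CPM, and Tnf at 29.2, 19.2, 12.1 and 13.8. Il2 and Csf2 had at most 8 UMIs in any library. Recurrent was therefore low for Ccl5, Ccl4 and Ccl3 but highest for Xcl1 and Gzmb. For Recurrent over Dormant 1 of 6 genes in the list was 2-fold higher and 4 were 2-fold lower, beside 7.7% and 13.4% of all genes, and for Recurrent over Primary 3 of 4 were lower, beside 2.53%. The list's sum and its median differed in sign for Dormant over Primary, at 2.05 and -0.45, since Ccl5 supplied 23816 of 24898 UMIs in Dormant.

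**Figure D2:**
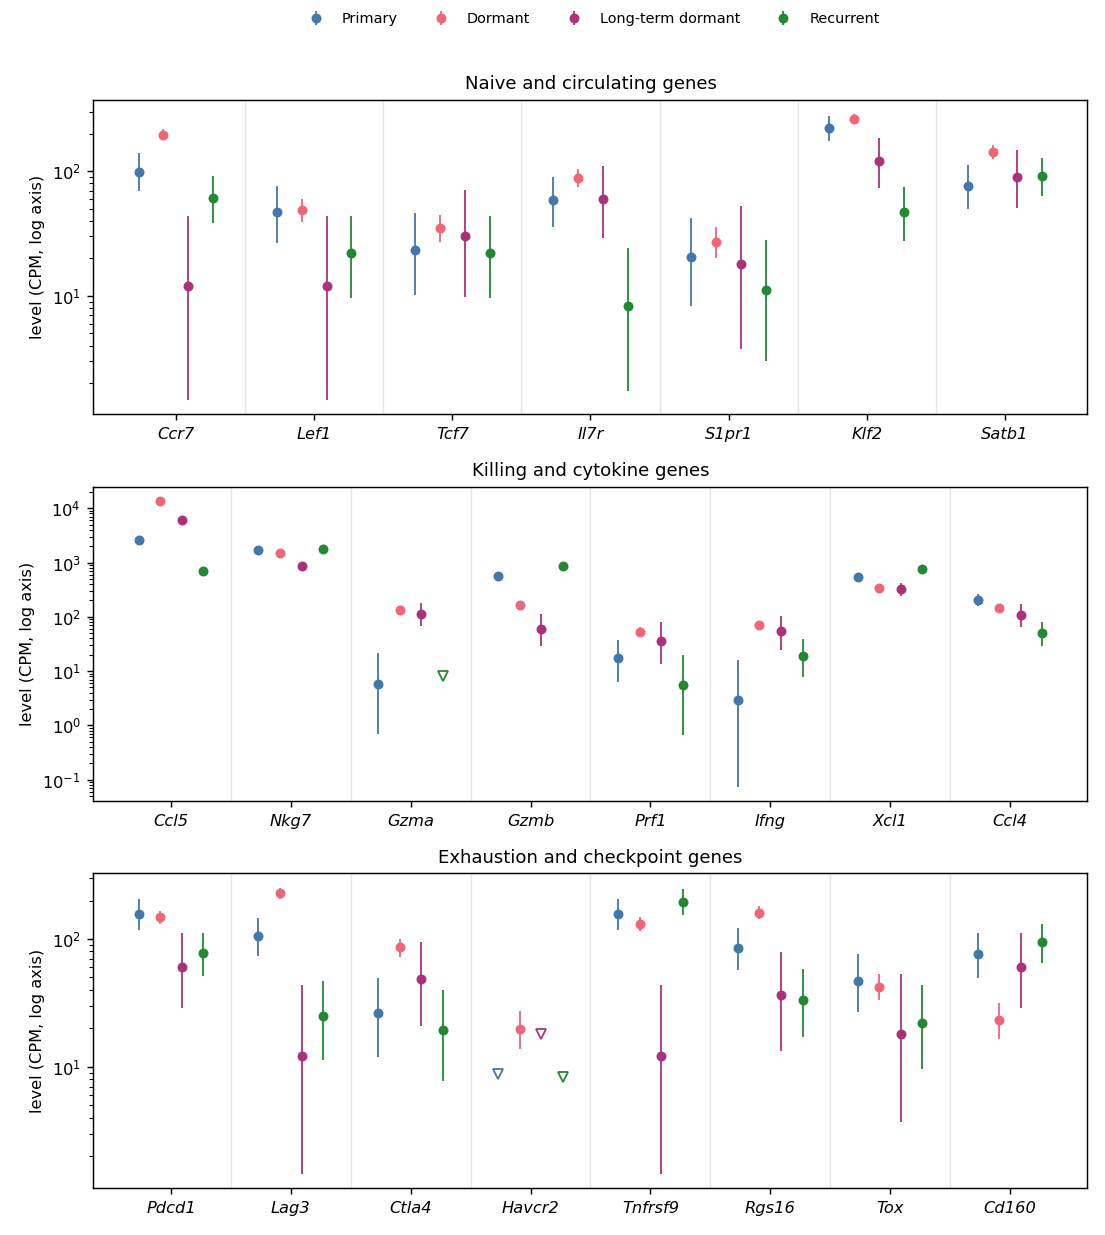
Level (CPM, log axis) of naive, killing, cytokine and exhaustion genes in the CD8 T cells of each library, from Primary to Recurrent; bars are exact 95% Poisson intervals, and open triangles are genes with 0 UMIs drawn at the limit of a count of 0. Ccl5 peaks at 13454 CPM in Dormant, whereas Gzmb is highest in Recurrent at 857 CPM.

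Summed over all cells, exhaustion and checkpoint genes were most abundant in Dormant and least for Long-term dormant. The 13 genes summed to 719 CPM in Primary (632 to 815), 911 in Dormant (867 to 956), 289 in the Long-term dormant library (213 to 384) and 514 in Recurrent (443 to 594), with no 2 intervals overlapping. Lag3, an inhibitory receptor for MHC class II, was at 105 CPM in Primary (73.7 to 146), 229 in Dormant (207 to 252), 12.1 for Long-term dormant (2 UMIs) and 24.9 in Recurrent (11.4 to 47.2). Its log2 ratio was 1.10 (0.63 to 1.65) for Dormant over Primary and -3.12 (-4.34 to -2.26) for Recurrent over Dormant. Pdcd1, which encodes PD-1, was at 158 CPM in Primary (119 to 206), 147 in Dormant (130.1 to 166), 60.3 in the Long-term dormant library (28.9 to 111) and 77.4 in Recurrent (51.4 to 112). Primary and Dormant could not be told apart for Pdcd1 and both stood above Recurrent. Ctla4, which competes for the costimulatory ligands, was at 26.3, 85.9, 48.2 and 19.4 CPM in stage order. Havcr2, which encodes Tim-3, had 35 UMIs in Dormant and Tigit had 17, and neither had a UMI in the other libraries. At those depths this puts Havcr2 in Recurrent at least 2.38-fold below Dormant and Tigit at least 1.16-fold below it, while for Long-term dormant the limit of 18.1 CPM allows no such statement for Tigit.

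Other members showed other orders. Tox, the transcription factor that sets the exhausted state, was at 46.8, 42.4, 18.1 and 22.1 CPM with all 4 intervals overlapping. Rgs16, a brake on G protein signalling, followed Lag3 at 84.8, 161, 36.2 and 33.2 CPM. Tnfrsf9, the costimulatory receptor 4-1BB, was at 158, 131, 12.1 and 196 CPM. Cd160, a receptor of resident and innate-like killer cells, was low in Dormant, at 76.0, 23.2, 60.3 and 94 CPM. Tnfrsf9 and Cd160 were thus not low in Recurrent, the library in which Lag3 and Pdcd1 were low. No order is read between Recurrent and Primary for them. For Dormant over Primary 4 of 12 list members were 2-fold higher and 1 was 2-fold lower, for Long-term dormant over Dormant 1 and 7 (5 with genes at 0 taken at their limit), for Recurrent over Dormant 1 and 5, and for Recurrent over Primary 0 and 4 of 6. The shares over all genes were 16.7% and 5.96%, 15.4% and 10.1%, 7.7% and 13.4%, and 4.97% and 2.53%. The median log2 ratios were -0.08, -1.12 (-0.45 at the limit), -0.88 and -1.03, beside 0.11, 0.14, -0.03 and 0.10 over all genes. The summed ratio of Long-term dormant over Dormant, -1.64, shrank to -0.88 without cells bearing 3 or more fibroblast or MHC class II UMIs. That of Dormant over Primary, 0.34, fell to 0.047 with each cell given equal weight and rose to 0.92 with a Cd8b1 UMI required. That of Recurrent over Primary, -0.48, came to -0.047 with 2 or more Cd8 UMIs required and to -0.997 with equal weight. The sizes of these differences were thus not stable.

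Shares of cells were compared after thinning each cell to 1000 UMIs, which kept 102, 478, 57 and 95 cells in stage order. A UMI of the naive genes Ccr7 or Lef1 was then found in 9.80% of the cells in Primary, 19.7% in Dormant, 3.51% for Long-term dormant and 6.32% in Recurrent. Without thinning these shares were 21.5%, 35.9%, 6.15% and 19.6%. A UMI of Pdcd1, Lag3, Havcr2, Tigit or Ctla4 was found in 17.6%, 28.9%, 12.3% and 6.32% of thinned cells, and in 29.9%, 43.1%, 21.5% and 23.7% unthinned. Both sets were most frequent in Dormant at this depth. Thinned to 500 UMIs, the naive share was 6.54%, 8.16%, 0% and 7.22%, so that Dormant and Recurrent were no longer apart, and the checkpoint share was 15.0%, 19.6%, 6.15% and 4.12%. A UMI of Gzma, Gzmb, Gzmk or Prf1 was found in 15.7%, 15.9%, 17.5% and 32.6% of thinned cells and 24.3%, 28.6%, 21.5% and 38.1% of all cells. Recurrent was the high library for this set, in which Gzmb was the abundant member there and Gzma and Prf1 were at 0 and 5.53 CPM. Since the CPM of these genes (602, 362, 211 and 863) ran against the shares of the other libraries, no order is read among those. Epcam-positive cells thinned likewise, whose median depth was 6000, 5930.5, 4874 and 9328.5 UMIs, gave 0.245%, 1.86%, 0.633% and 0.112% for the naive set, 1.03%, 3.26%, 2.53% and 0.634% for the checkpoint set and at most 1.86% for the granzyme set. The naive share in Long-term dormant, 2 of 57 cells (0.428% to 12.1%), had an interval that overlapped that of this background (0.0160% to 3.48%). The checkpoint share in Long-term dormant (5.08% to 23.7%) likewise overlapped its Epcam background (0.694% to 6.35%). In Csf1r-positive cells, which include macrophages, a checkpoint UMI was found in 8.37%, 6.47%, 0.475% and 6.46%. The Recurrent checkpoint share of 6.32% (2.35% to 13.2%) was thus no higher than in those cells. It was above that of Epcam-positive cells, 0.634% (0.370% to 1.01%). Whether Csf1r-positive cells held checkpoint RNA of their own was not tested, and no expression is read from the Recurrent share alone.

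Some cells held UMIs of more than 1 of these sets, and at this depth a low joint share does not show that the sets sat in different cells. After thinning, a naive and a granzyme or perforin UMI met in 0%, 1.67%, 1.75% and 1.05% of cells, and a granzyme or perforin and a checkpoint UMI in 1.96%, 7.74%, 1.75% and 3.16%. In Dormant 37 of the 76 thinned cells with a granzyme or perforin UMI also had a checkpoint UMI. UMIs of 2 or more checkpoint genes were found in 6.86% of cells in Primary and 8.79% in Dormant, against 0 of 57 cells in the Long-term dormant library and 0 of 95 in Recurrent. Counts of 0 allow shares of up to 5.26% in Long-term dormant and 3.16% in Recurrent.

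**Figure D3:**
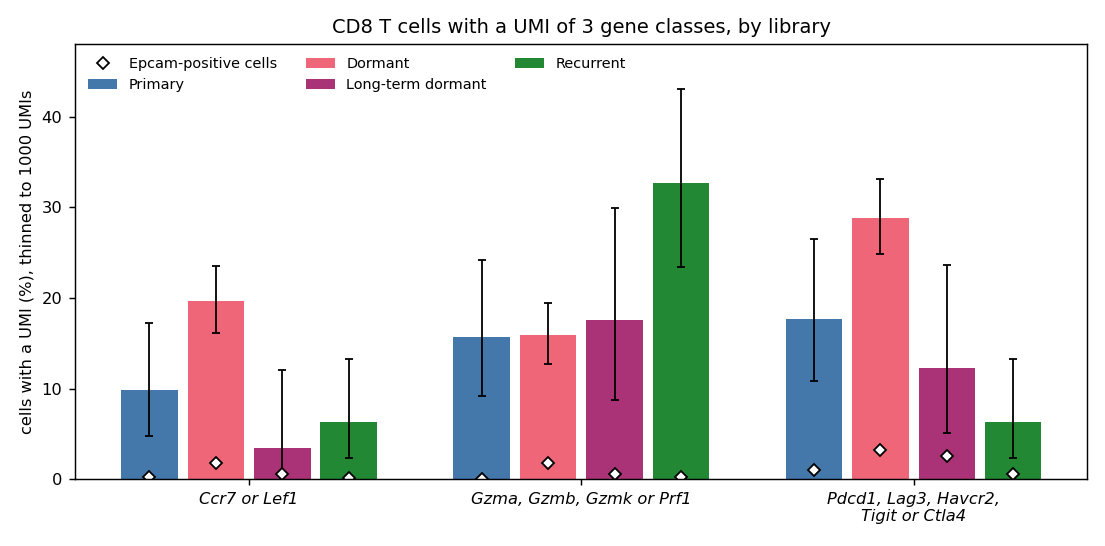
Share of CD8 T cells (percent, with exact 95% Clopper-Pearson intervals) with a UMI of the naive, granzyme or perforin, and checkpoint sets, after thinning to 1000 UMIs, from Primary to Recurrent; diamonds are Epcam-positive cells of the same library. Naive and checkpoint shares are highest in Dormant at 19.7% and 28.9%, and the granzyme share is highest in Recurrent at 32.6%.

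The unthinned cells were also split by their own genes, as a description. In Dormant, the 101 cells with a granzyme or perforin UMI and no Ccr7 or Lef1 UMI had 24905 CPM of Ccl5, against 3737 in the 137 cells with a Ccr7 or Lef1 UMI and no granzyme or perforin UMI. In Primary the same split gave 2629 CPM in 22 cells against 580 in 19, and in Recurrent 729 in 36 cells against 380 in 18. Ccl5 was therefore higher in granzyme-bearing cells of Dormant and Primary, with log2 ratios of 2.74 (2.67 to 2.81) and 2.17 (1.68 to 2.71). The Recurrent ratio of 0.92 (0.33 to 1.60) rested on 28 UMIs in its 18 naive cells, too few to rest a direction on. Pdcd1 was higher in the granzyme-bearing cells of Dormant, at 233 against 80.4 CPM. In Primary it was at 259 against 44.6 CPM, a log2 ratio of 2.35 (0.78 to 4.93). All CD8 T cells of Primary held 54 Pdcd1 UMIs, so no direction is read there. In Recurrent it had 13 UMIs in the granzyme-bearing cells against 0. Lag3 in Dormant was at 285 against 112 CPM. Klf2 was lower in the granzyme-bearing cells of Dormant, at 208 against 290 CPM, a log2 ratio of -0.48 (-0.89 to -0.09). In Primary it was at 90.6 against 342 CPM, a ratio of -1.85 (-3.38 to -0.65), with 76 Klf2 UMIs in all CD8 T cells of that library. In Recurrent it was at 7.08 against 122 CPM. Since all CD8 T cells of Recurrent held 17 Klf2 UMIs, no direction is read there. Long-term dormant had 1 cell of the naive kind, too few to compare.

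Cd8b1 divides the cells further, since conventional CD8 T cells carry Cd8a with Cd8b1 and many innate-like gut and tissue lymphocytes carry Cd8a alone. A Cd8b1 UMI was found in 71 of 107 cells in Primary, 323 of 490 in Dormant, 48 of 65 for Long-term dormant and 60 of 97 in Recurrent, and at this depth its absence does not show that a cell lacks it. Gzmb was at 1647 CPM in Cd8a-only cells against 179 in Cd8b1 cells in Primary, and at 1267 against 618 in Recurrent. In Dormant it was at 127 against 181 and in Long-term dormant at 53.0 against 64.0. The Gzmb of the Primary library thus sat mostly in Cd8a-only cells, with a log2 ratio of 3.19 (2.71 to 3.71). Fcer1g, a signalling adaptor of NK and innate-like T cells, was higher in Cd8a-only cells of 3 libraries, at 867 against 211 CPM in Primary, 353 against 128 in the Long-term dormant library and 1229 against 390 in Recurrent. In Dormant, at 196 against 162, the interval of its ratio included no difference. Pdcd1 was higher in Cd8a-only cells of Primary, at 373 against 79.7 CPM, and of Recurrent, at 135 against 43.8. In Dormant it was higher in them too, with a log2 ratio of 0.55 (0.17 to 0.92). Long-term dormant had 10 Pdcd1 UMIs, of which 2 were in Cd8a-only cells. Ccr7 was lower in them, at 11.0 against 132 CPM in Primary and 15.0 against 87.6 in Recurrent. The alpha-beta constant gene Trac gave intervals that included no difference, with log2 ratios of -0.11 (-0.57 to 0.33) in Primary and 0.08 (-0.35 to 0.50) in Recurrent. The gamma-delta constant gene Tcrg-C2 was higher in Cd8a-only cells, with log2 ratios of 1.79 (0.75 to 2.88) in Primary and 2.40 (1.47 to 3.51) in Recurrent, where Trdc, the delta chain constant gene, had 25 UMIs in them against 0. In Dormant both gamma-delta genes gave intervals that included no difference. The beta chain gene Trbc2 was lower in Cd8a-only cells of Long-term dormant, at -1.13 (-2.08 to -0.34). Xcl1 was higher in Cd8a-only cells of Primary (736 against 470 CPM) and Recurrent (1117 against 569) but lower in those of Dormant (119 against 420). Among Cd8b1 cells alone, Gzmb was at 179, 181, 64.0 and 618 CPM in stage order, so the Primary and Dormant levels coincided there and Recurrent remained the highest.

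**Figure D4:**
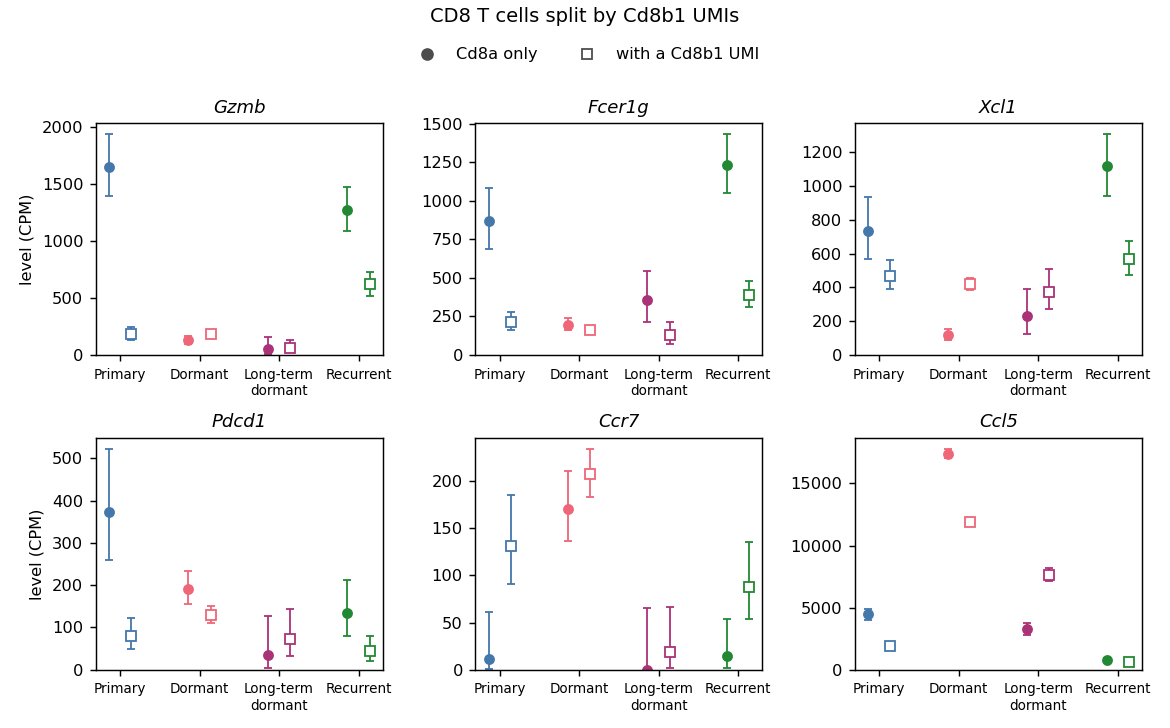
Level (CPM, linear axis from 0, scaled for each gene) of 6 genes in Cd8a-only cells (filled circles) and in cells with a Cd8b1 UMI (open squares) of each library, from Primary to Recurrent, with exact 95% Poisson intervals. Gzmb in Primary is at 1647 CPM in Cd8a-only cells against 179 in Cd8b1 cells, while in Dormant the levels are 127 and 181.

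Resident-memory genes were split. Itgae, the integrin CD103 that holds T cells to epithelium, was at 126 CPM in Primary (91.0 to 169), 31.1 in Dormant (23.4 to 40.4), 139 for Long-term dormant (87.9 to 208) and 144 in Recurrent (107 to 189). Dormant was the low library and the others overlapped. Cxcr6, the receptor that keeps T cells in tissue, was at 251, 167, 121 and 77.4 CPM and Cd69, which blocks exit, at 193, 132, 48.2 and 99.5 CPM. The list had 1 and 2 of 7 genes 2-fold higher and lower for Dormant over Primary (16.7% and 5.96% of all genes), 2 and 1 for Long-term dormant over Dormant (15.4% and 10.1%), 1 and 3 of 6 for Recurrent over Dormant (7.7% and 13.4%) and 0 and 2 of 6 for Recurrent over Primary (4.97% and 2.53%).

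Among regulators of effector and memory fate, Eomes, a T-box factor, was at 35.1 CPM in Primary, 78.0 in Dormant, 0 in the Long-term dormant library and 27.6 in Recurrent, at least 4.31-fold lower in Long-term dormant than in Dormant. Id2, which promotes effector cells, was at 523, 651, 295 and 268 CPM. Bhlhe40, a factor of cytokine-making and resident cells, was at 99.4, 183, 289 and 49.8 CPM. Recurrent was low for all 3 relative to Dormant, although the log2 ratio of Eomes came to 0.045 for Recurrent over Dormant without gamma-delta and NK marker cells. In that comparison 7 of 12 members were 2-fold lower (6 with a gene at 0 taken at its limit) and 0 were higher, beside 13.4% and 7.7% of all genes. In the stem-like list 5 of 8 were lower in the same comparison (4 at the limit) and 1 was higher, beside the same shares, with the costimulatory receptor Icos at 33.2 CPM in Recurrent against 148 in Dormant. The sum of that list ran the other way, at 0.19 (0.02 to 0.36) on the log2 scale, while its median was -1.70. Klrg1, a marker of terminal effectors, had no UMI in any library.

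Summed over all cells, genes switched on by receptor signalling were higher in both residual-tissue libraries. The list summed to 579 CPM in Primary, 1197 in Dormant, 1615 for Long-term dormant and 680 in Recurrent. For Dormant over Primary 5 of 10 members were 2-fold higher and 1 was lower (16.7% and 5.96% of all genes). For Long-term dormant over Dormant it was 3 and 2 (15.4% and 10.1%). Recurrent over Dormant had 0 and 4 (7.7% and 13.4%), and Recurrent over Primary 2 and 1 of 7 (4.97% and 2.53%). Egr1, an immediate early factor, was at 17.5, 87.6, 603 and 60.8 CPM, and the nuclear receptor Nr4a2 at 114, 425, 307 and 182. Genes known to respond to tissue digestion were higher in the same libraries. These 14 genes summed to 4474 CPM in Primary, 8434 in Dormant, 7263 in the Long-term dormant library and 5200 in Recurrent, with 7 of 14 past 2-fold higher for Dormant over Primary and 8 of 14 past 2-fold lower for Recurrent over Dormant, beside 16.7% and 13.4% of all genes. Within it the chaperone Hsp90aa1 was at 190.1, 851, 295 and 210.1 CPM and Hsph1 at 20.5, 123, 66.3 and 5.53 CPM. The part of handling in the receptor-signalling genes was not tested. Fosb, by contrast, peaked in Long-term dormant at 512 CPM, against 116 in Dormant. Without cells bearing other-lineage UMIs, the log2 ratio of Long-term dormant over Dormant turned from 1.16 to -0.30 for Fos. That of Atf3 turned from 1.24 to -0.69. The part of such cells in the summed levels here was not tested.

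Summed over all cells, cell cycle genes were higher in Long-term dormant and Recurrent. The list summed to 1310 CPM in Primary (1192 to 1437), 1367 in Dormant (1313 to 1423), 2001 for Long-term dormant (1791 to 2228) and 2168 in Recurrent (2018 to 2325). Against Dormant, 9 of 18 members were 2-fold higher and 1 was lower in Long-term dormant, and 10 were higher and 1 was lower in Recurrent. Of all genes 15.4% and 10.1% were so in Long-term dormant and 7.7% and 13.4% in Recurrent. Mki67, present in dividing cells, was at 2.92, 12.4, 78.4 and 30.4 CPM, and Top2a, which untangles replicated DNA, at 29.2, 40.7, 151 and 113 CPM. Hist1h2ap, a histone gene with near-identical copies, was at 298, 108, 591 and 885 CPM. After thinning, a UMI of Mki67, Top2a, Birc5, Rrm2 or Cdk1 was found in 4.90%, 5.65%, 17.5% and 11.6% of CD8 T cells. In Epcam-positive cells, which divide too, it was 11.2%, 5.58%, 6.96% and 5.44%. In Csf1r-positive cells it was 7.44%, 2.88%, 10.7% and 5.65%. The CD8 interval in Long-term dormant (8.75% to 29.9%) included that Csf1r-positive share. In Recurrent the CD8 interval (5.92% to 19.8%) overlapped that of Csf1r-positive cells (4.43% to 7.09%). No higher share than in those cells is read for either library. In Long-term dormant the histone ratio over Dormant, 2.45, turned to -0.70 without cells bearing other-lineage UMIs. The ratio of Pclaf turned from 2.33 to -1.60 with the same choice. That of Tyms turned from 1.54 to -1.57 with 2 or more Cd8 UMIs required. Mki67 and Top2a were not among the genes that turned round. The part of other cells in the Long-term dormant sum was not tested.

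Interferon-stimulated genes were lowest in Dormant, with sums of 927, 589, 1133 and 907 CPM in stage order. For Recurrent over Dormant 3 of 9 members were 2-fold higher and 0 lower, beside 7.7% and 13.4% of all genes. Isg15 was at 55.6, 50.8, 54.2 and 124 CPM, with 48.9% of the Recurrent UMIs in 1 cell. The glycolysis list summed to 3462, 3132, 2001 and 2662 CPM with at most 1 member past 2-fold in each direction in any comparison. In the homing list the gut-homing receptor Ccr9 had 0 UMIs in Primary and Long-term dormant, 40.7 CPM in Dormant and 22.1 in Recurrent, and 5 of 11 members were 2-fold lower in Recurrent than in Dormant, beside 13.4% of all genes. Of the Notch pathway, Hes1, a target of the receptor, had 3, 51, 4 and 0 UMIs in stage order, and its inhibitor Nrarp was at 58.5, 94.9, 12.1 and 80.2 CPM. The 9 Notch genes summed to 178, 243, 241 and 235 CPM, with overlapping intervals. As a log2 ratio the sum was 0.44 (0.056 to 0.857) for Dormant over Primary, while the remaining comparisons gave intervals that included no difference.

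**Figure D5:**
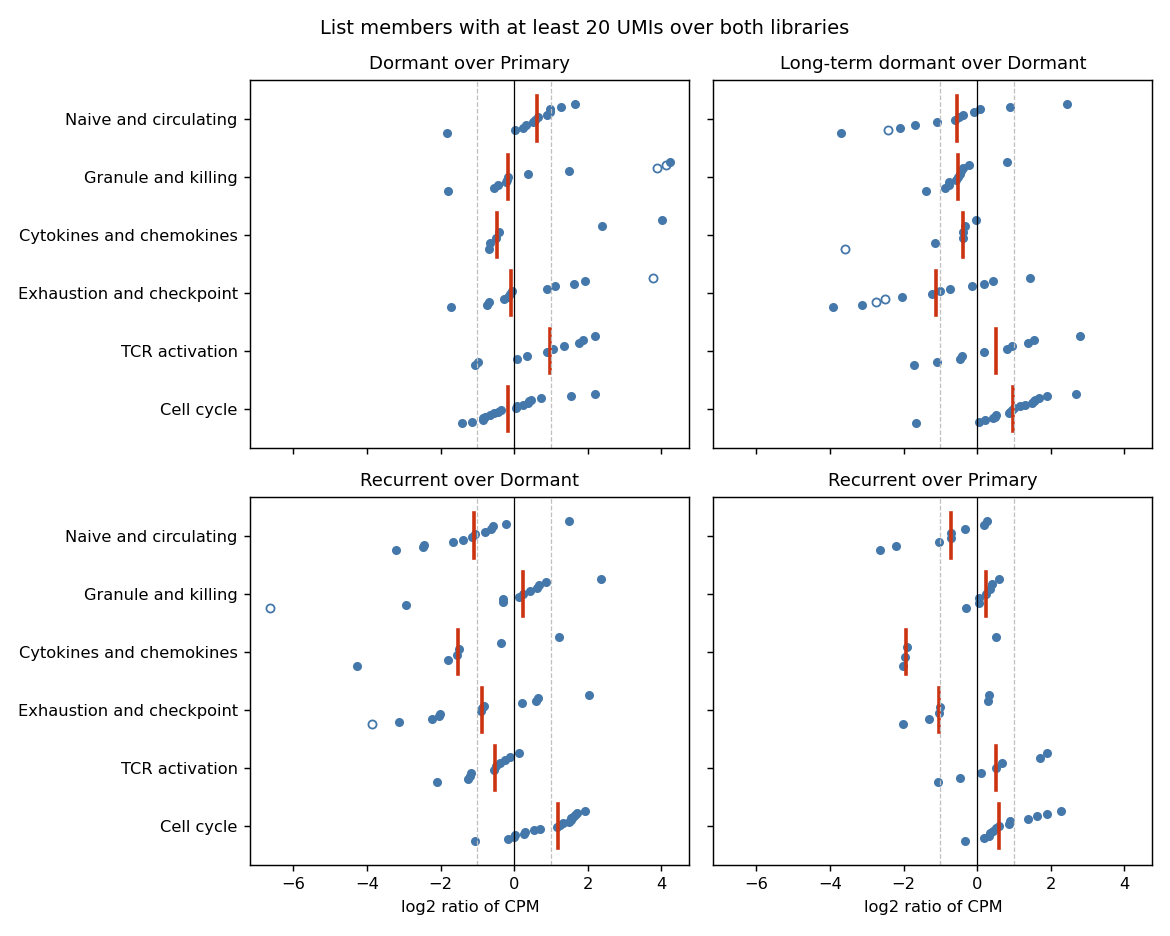
Log2 ratio of each list member with at least 20 UMIs over both libraries, by gene list and comparison; open circles are genes at 0 in 1 library, red bars are list medians and the comparisons share the Dormant or Primary library. Naive and exhaustion members lie mostly below 0 for Recurrent over Dormant (medians -1.10 and -0.88), and cell cycle members mostly above (median 1.20).

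Outside the lists, the genes farthest apart in Recurrent included a lectin-like receptor. Klra5, of the Ly49 family of MHC class I receptors, was at 14.6 CPM in Primary, 2.82 in Dormant, 0 in the Long-term dormant library and 263 in Recurrent (95 UMIs), although members of that family are alike and share reads. Areg, a growth factor for epithelium and a product of tissue-repair lymphocytes, was at 29.2, 109, 18.1 and 0 CPM, at least 13.1-fold lower in Recurrent than in Dormant. Penk, an opioid peptide precursor made by activated T cells, was at 20.5, 112, 6.03 and 2.76 CPM, and Rora, a nuclear receptor of innate-like and type 17 lymphocytes, at 26.3, 100, 217 and 16.6 CPM. Klri2, a killer cell lectin-like receptor, was at 11.7, 112, 6.03 and 8.29 CPM with 38.9% of the Dormant UMIs in 1 cell. Areg, Penk and Klri2 were thus highest in Dormant over all cells. For Areg, the log2 ratio of Dormant over Primary turned from 1.83 to -0.082 without gamma-delta and NK marker cells. Bcl2, which protects from cell death, was highest in Primary, at 597, 226, 115 and 323 CPM. For Long-term dormant over Dormant the 8 highest ratios that could be named were the matrix genes Hspg2, Col6a1, Col5a3, Postn, Eln, Col5a2, Col6a3 and Sparc, with log2 ratios from 4.52 to 5.74, and they lay beside the fibroblast markers given above. The lower ones included Irf8, a factor induced on T cell activation, at 30.1 CPM in Long-term dormant against 241 in Dormant, and the phosphatase Dusp2 at 175 against 578.

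The scale matters most for Long-term dormant. Of its genes past 2-fold from Dormant, 60.3% were higher, against 32.0% after TMM scaling and 51.6% when scaled without mitochondrial, ribosomal and haemoglobin genes. For Recurrent over Primary the share was 66.2%, against 52.1% on that second scale. The prior added to the counts mattered too. With a prior of 2 in place of 0.5 the share was 90.8% for Long-term dormant over Dormant. It was then 59.6%, against 36.5%, for Recurrent over Dormant and 51.5%, against 73.8%, for Dormant over Primary. The shares over all genes given beside the lists thus depend on the prior.

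CD4 T cells, taken by the same limits with a Cd4 UMI and no Cd8 UMI, had other orders. These were 94 cells in Primary, 147 in Dormant, 38 for Long-term dormant and 37 in Recurrent. Ccl5 was at 13454 CPM in CD8 T cells of Dormant against 1585 in its CD4 T cells, and at 691 CPM in CD8 T cells of Recurrent against 8335 in its CD4 T cells. In Primary the CD8 T cells had 2570 CPM against 8805. Pdcd1 was lower in CD8 T cells of both tumour libraries, at 158 CPM against 957 in Primary and 77.4 against 707 in Recurrent. In Dormant it was at 147 CPM against 213. The exhaustion list summed to 911 CPM in CD8 T cells of Dormant against 1432 in CD4 T cells, and to 514 against 2802 in Recurrent. Cells with a Gzmc or Gzmf UMI and no Csf1r or Epcam UMI, whether or not they had Cd8, numbered 93, 24, 2 and 99 in stage order. In Primary the CD8 T cells had 570.2 CPM of Gzmb against 2125 in the Gzmc or Gzmf cells, and in Recurrent 857 against 3307. Gzma was at 5.85 CPM against 176 in Primary and at 0 against 113 in Recurrent.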

How the data were processed

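Single-cell RNA of 4 mouse mammary tumour libraries was measured, 1 per stage. The deposited table held raw UMI counts of 22547 genes in each cell. Per the submitters' processing notes, the authors used Cell Ranger 3.1.0 and FastQC with mm10; other filters before deposit are not given in the sources used here. Samples were grouped by their labels. The members and the gene lists were chosen with earlier results of these data known.

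Raw counts were summed over the CD8 T cells of each library and given per 1000000 UMIs (CPM) with exact 95% Poisson intervals. Log2 ratios used a prior of 0.5 counts and exact conditional binomial intervals, and shares used Clopper-Pearson intervals, all for counting error only, since UMIs within a cell are not independent. Cells are not replicates, so with 1 library per group there was no test and no p-value. Where a gene had 0 UMIs, 3 UMIs per library was taken as its limit. Shares between libraries were taken after thinning cells to 1000 UMIs, which left out 5 Primary, 12 Dormant, 8 Long-term dormant and 2 Recurrent cells. Scrublet in scanpy 1.11.5 marked 53 of 4328 Primary, 0 of 3276 Dormant, 137 of 6004 Long-term dormant and 57 of 4685 Recurrent cells, of which 2 Long-term dormant cells were CD8 T cells; none were removed, and doublets were in effect not called in Dormant.

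Members of the naive, killing, cytokine and exhaustion lists were named by level. Other lists gave up to 4 genes with the largest ratio among those with at least 20 UMIs. Outside the lists the 8 highest and 8 lowest per comparison could be named, given a mean of 50 CPM, an interval beyond 2-fold and no level over 5 times higher in Csf1r-, Epcam- or Col1a1-positive cells. Fcer1g, Trac, Klrg1 and the genes of the splits within the CD8 T cells were picked once their values were known. The ratio code was tested on simulated counts. Python 3.11.15, numpy 2.4.6, scipy 1.17.1, matplotlib 3.10.9 and edgeR 4.0.16 in R 4.3.3 (TMM only) were used. Promoter sequences came from RefSeq's GRCm38.p6 table. The promoters of Ccl5 and Ccr7 were looked for and not found, and that of Pdcd1 was searched for letters but is not printed. The antibody-treated libraries were not used here, and 1 naive-list gene is not reported here by itself.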

Additional observations from a re-analysis of the deposited data

How the results depend on the processing

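Most ratios of single genes and list sums stayed within their counting interval. A ratio was counted as turned round only where its interval for all cells excluded no difference, and for single genes only past 2-fold. Other changes of sign were not counted. Over all alternatives, 8542 values of single genes stayed within the interval, 492 moved and 23 turned round. The 8542 include 650 at a minimum of 5 UMIs and 356 at a minimum of 100, choices that leave a gene's ratio unchanged. Of the list sums 117 held, 36 moved and 3 turned round. Shares moved more often. Of the shares of cells with a UMI 47 moved and 41 held, with 20 of the moves at 500 UMIs and 27 without thinning, and of the shares of CD8 T cells 38 moved and 26 held. List sums that moved past their counting interval, and list sums and single genes that turned round, follow, as log2 ratios, each with the value for all cells in parentheses, and the cause was not tested. Requiring 2 or more Cd8 UMIs put, for Dormant over Primary, the naive list at 0.22 (0.52), the killing list at 0.13 (-0.17) and the exhaustion list at 0.89 (0.34). In Long-term dormant over Dormant, the naive list was at -0.22 (-0.71), the killing list at -0.33 (-0.59), Id3 at -0.28 (1.10) and Tyms at -1.57 (1.54). With this choice Recurrent over Dormant gave the killing list at 0.29 (0.39) and Cxcl10 at -1.52 (2.62). It gave the killing list at 0.42 (0.22) and the exhaustion list at -0.047 (-0.48) for Recurrent over Primary. Requiring a Cd8b1 UMI put, for Dormant over Primary, the naive list at 0.27 (0.52), the killing list at 0.15 (-0.17) and the exhaustion list at 0.92 (0.34). For Long-term dormant over Dormant, the killing list was at -0.43 (-0.59). In Recurrent over Dormant, the naive list was at -0.94 (-1.34), the killing list at 0.22 (0.39), the exhaustion list at -1.32 (-0.82) and Isg15 at -0.016 (1.30). With this choice Recurrent over Primary gave the killing list at 0.37 (0.22) and Isg15 at -0.20 (1.14). Leaving out cells with a gamma-delta or NK marker UMI put, for Dormant over Primary, Areg at -0.082 (1.83) and Gzmb at 0.58 (-1.79). It gave the naive list at -1.27 (-0.71) for Long-term dormant over Dormant. For Recurrent over Dormant, the killing list was at 0.54 (0.39) and Eomes at 0.045 (-1.43). In Recurrent over Primary, the killing list was at 0.42 (0.22). Leaving out cells with a B cell, macrophage, fibroblast or keratin UMI put, for Dormant over Primary, the killing list at 0.10 (-0.17). With this choice Long-term dormant over Dormant gave the naive list at -1.39 (-0.71), the killing list at -0.35 (-0.59), the exhaustion list at -1.07 (-1.64), Atf3 at -0.69 (1.24), Fos at -0.30 (1.16), Hist1h2ap at -0.70 (2.45), Pclaf at -1.60 (2.33) and Ptpn6 at -0.067 (1.17). It gave the killing list at 0.54 (0.39) for Recurrent over Dormant. For Recurrent over Primary, the killing list was at 0.64 (0.22) and the exhaustion list at -0.12 (-0.48). Leaving out cells with 3 or more fibroblast or MHC class II UMIs put, for Dormant over Primary, Cst3 at -0.24 (2.19). In Long-term dormant over Dormant, the naive list was at -1.31 (-0.71), the killing list at -0.26 (-0.59), the exhaustion list at -0.88 (-1.64), Fos at -0.70 (1.16) and Id3 at -1.31 (1.10). With this choice Recurrent over Dormant gave Cst3 at 0.15 (-2.20). Giving each cell equal weight put, for Dormant over Primary, the naive list at 0.74 (0.52), the exhaustion list at 0.047 (0.34) and Ccl9 at -1.92 (3.05). It gave the naive list at -1.24 (-0.71) and Ccl9 at 0.87 (-1.27) for Long-term dormant over Dormant. For Recurrent over Dormant, the killing list was at 0.29 (0.39) and Ccl9 at 2.44 (-2.65). In Recurrent over Primary, the exhaustion list was at -0.997 (-0.48). Scaling without mitochondrial, ribosomal and haemoglobin genes put, for Dormant over Primary, the killing list at -0.29 (-0.17). TMM scaling put, for Long-term dormant over Dormant, the naive list at -1.07 (-0.71) and the killing list at -0.95 (-0.59). Leaving out each gene's richest cell put, for Dormant over Primary, Ccl9 at -0.23 (3.05). With this choice Long-term dormant over Dormant gave the naive list at -1.29 (-0.71) and Ccl9 at 0.78 (-1.27). It gave the naive list at -1.61 (-1.34) and Ccl9 at 0.51 (-2.65) for Recurrent over Dormant. The choices on fibroblast or MHC class II UMIs, the richest cell and a required receptor UMI were added after seeing the data.

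The share of CD8 T cells among filtered cells and among Cd3 cells was 1.73% and 12.4% in Primary, 8.67% and 16.8% in Dormant, 0.550% and 7.88% in Long-term dormant and 1.56% and 18.9% in Recurrent with 2 or more Cd8 UMIs required. It was 1.64% and 11.8% in Primary, 9.86% and 19.2% in Dormant, 0.799% and 11.5% in Long-term dormant and 1.28% and 15.5% in Recurrent with a Cd8b1 UMI required. Leaving out gamma-delta and NK marker cells gave 1.73% and 12.4% in Primary, 10.6% and 20.5% in Dormant, 0.700% and 10.0% in Long-term dormant and 1.28% and 15.5% in Recurrent, and leaving out other-lineage cells gave 1.39% and 9.93% in Primary, 12.5% and 24.2% in Dormant, 0.383% and 5.49% in Long-term dormant and 1.11% and 13.4% in Recurrent. Leaving out cells with fibroblast or MHC class II UMIs gave 14.7% of Cd3 cells in Primary, 12.9% and 25.1% in Dormant and 0.750% and 10.7% in Long-term dormant. A stricter cell filter gave 16.3% of filtered cells in Dormant. Dormant had the highest share of filtered cells under every one of these choices, but among Cd3 cells Recurrent was higher with 2 or more Cd8 UMIs required.

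Genes past 2-fold numbered 1448 for Dormant over Primary, 1606 for Long-term dormant over Dormant, 1358 for Recurrent over Dormant and 237 for Recurrent over Primary. With a minimum of 5 UMIs these counts were 3049, 3442, 2965 and 1371, and with a minimum of 100 UMIs 324, 237, 270 and 14. For Recurrent over Primary 3157 genes had at least 20 UMIs over both libraries, of which 4.97% were higher and 2.53% lower. For Dormant over Primary it was 6381 genes, with 16.7% higher and 5.96% lower. The part of depth in these counts was not tested. Long-term dormant, with 165920 UMIs in 65 cells, is the shallowest library, and a gene under 18.1 CPM can go unseen there. No paired analysis was possible because each stage had 1 library, so that the stages share fewer than 2 replicate numbers and no test was made.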
